A study of Mus musculus with 12 samples.

Results

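The amino acid transporter families measured here are the products of 7 groups of solute carrier genes, Slc1a, Slc3a, Slc6a, Slc7a, Slc36a, Slc38a and Slc43a. Members were taken by name: every transcript cluster of the array whose annotated symbol began with one of these prefixes and a number was included, except Slc7a11. This gave 61 genes of the 19480 named on the array, each with 1 cluster. The name rule used no measured value, although the families were chosen with earlier results of these data known. The name also took in Slc7a6os, a gene on the opposite strand beside Slc7a6 that is not a transporter, and Slc6a21, and neither was given a role.

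RNA came from 3T3-L1 cells, a mouse preadipocyte line, at day 8 of adipocyte differentiation. The groups were alpha-linolenic acid (ALA, the plant omega-3 fatty acid) at 50 µM together with a delta-6-desaturase inhibitor at 5 µM, ALA alone, the inhibitor alone, and control cells given ethanol and DMSO, all with insulin at 5 µg/ml in the maintenance medium. Albumin at 2% is stated for the medium with ALA, and the sources used here do not give it for the other arms, so in comparisons of ALA with an arm that lacks it, a part of albumin was not tested. Each of the 4 treatments had 3 arrays, 1 from each of passages 6, 7 and 8, so each passage had 4 arrays. All cells belong to 1 line, so p-values speak to the spread between its cultures.

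Amino acids cross the plasma membrane on carriers of several kinds. The heavy subunits of the Slc3a group bring light subunits of the Slc7a group to the cell surface, where the pair exchanges one amino acid for another. Sodium-coupled carriers of the Slc1a and Slc38a groups load the cell with glutamine, alanine and glutamate, which exchangers such as Slc7a5 with Slc3a2 can trade for leucine and other essential amino acids. Members of the Slc36a and Slc38a groups also sit on lysosomes, and adipocytes burn branched-chain amino acids taken up by these routes. When amino acids run short, the kinase Eif2ak4 (GCN2) and the transcription factor Atf4 raise many of these carriers through amino acid response elements.

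The deposited values were log2 signals, in which a difference of 1 is a doubling of signal. The 12 array medians lay between 6.14 and 6.27. The ALA array of passage 7 stood apart, with correlations of 0.976 to 0.987 with the other arrays, against 0.989 to 0.994 among the other 11. It was the highest of the 12 arrays in 15 of the 31 members whose mean lay under the array median (48.4%), and in 3436 of 11068 such clusters in all (31%). Where leaving out that array turns the direction of a member's difference described below, the value without it is given beside it. All 10 adipocyte markers measured lay above the array median on all arrays, while 0 of 6 macrophage and 0 of 6 endothelial markers did.

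Because Atf4 and related factors act through it, the 8-letter core of the amino acid response element, TGATGNAA, was searched on both strands of RefSeq promoters (250 bases before to 50 after the gene start, GRCm38.p6). Of the 61 members, 44 were in the promoter table with 65 promoters, and 3 of the 44 (6.82%) held the core, against 4.51% of 27025 genes. By promoter, the core was in 4 of the members' 65 and in 3.97% of all 32851. The windows that carry the core are shown with its letters in capitals, which read TTNCATCA where the match is on the other strand. The cystine carrier Slc7a11, a textbook target of this response, is shown beside the members although it is not one of them. A match is a description of the letters and not of a site in use. Bases outside this window and members without a promoter in the table were not searched. The lack of a match therefore does not show that a gene lacks the element.
Slc1a4, chr11:20332699-20332728, minus strand: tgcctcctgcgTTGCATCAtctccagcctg
Slc7a7, chr14:54417927-54417956, minus strand: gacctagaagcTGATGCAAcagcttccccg
Slc7a7, chr14:54418067-54418096, minus strand: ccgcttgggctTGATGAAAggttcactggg
Slc6a21, chr7:45282834-45282863, plus strand: agaggtgagaaTTACATCAagtgggcctcc
Slc7a11, chr3:50443642-50443671, minus strand: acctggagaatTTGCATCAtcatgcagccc
Slc7a11, chr3:50443661-50443690, minus strand: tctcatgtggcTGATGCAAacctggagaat

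The families split into clearly detected and dim members. On all 12 arrays 26 members lay above the array median, 24 lay below it on all 12, and 11 lay between. Signals of different clusters rest on different probes, so they place a gene as bright or dim on the array and do not rank abundances. The brightest members were the heavy chain Slc3a2 (CD98), with a mean of 12.28 over the 12 arrays, the system A carrier Slc38a2 (SNAT2) at 11.57, the glutamine exchanger Slc1a5 (ASCT2) at 11.30 and the light chain Slc7a5 (LAT1) at 10.94. Above 10 were also the taurine carrier Slc6a6 at 10.88, Slc38a10 at 10.62, the nucleobase carrier Slc43a3 at 10.53, the lysosomal arginine sensor Slc38a9 at 10.35 and the creatine carrier Slc6a8 at 10.15.

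By role, both exchangers of the ASC system (Slc1a4, Slc1a5) and all 3 Slc43a members lay above the array median on all arrays. So did 6 of 11 Slc38a members, 3 of 4 Slc36a members, 4 of 10 Slc6a carriers of transmitters and osmolytes, 2 of 5 glutamate carriers of the Slc1a group and 2 of 9 light chains. Of the 5 cationic carriers of the Slc7a group, the arginine carrier Slc7a1 (CAT1) did so, at 8.83. Of the 2 heavy chains, Slc3a2 was bright and Slc3a1, known from kidney and gut, averaged 4.12. The remaining Slc6a amino acid carriers were the dimmest role, with 1 of 8 above the median on all arrays and means of 2.85 to 6.61.

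**Figure D1:**
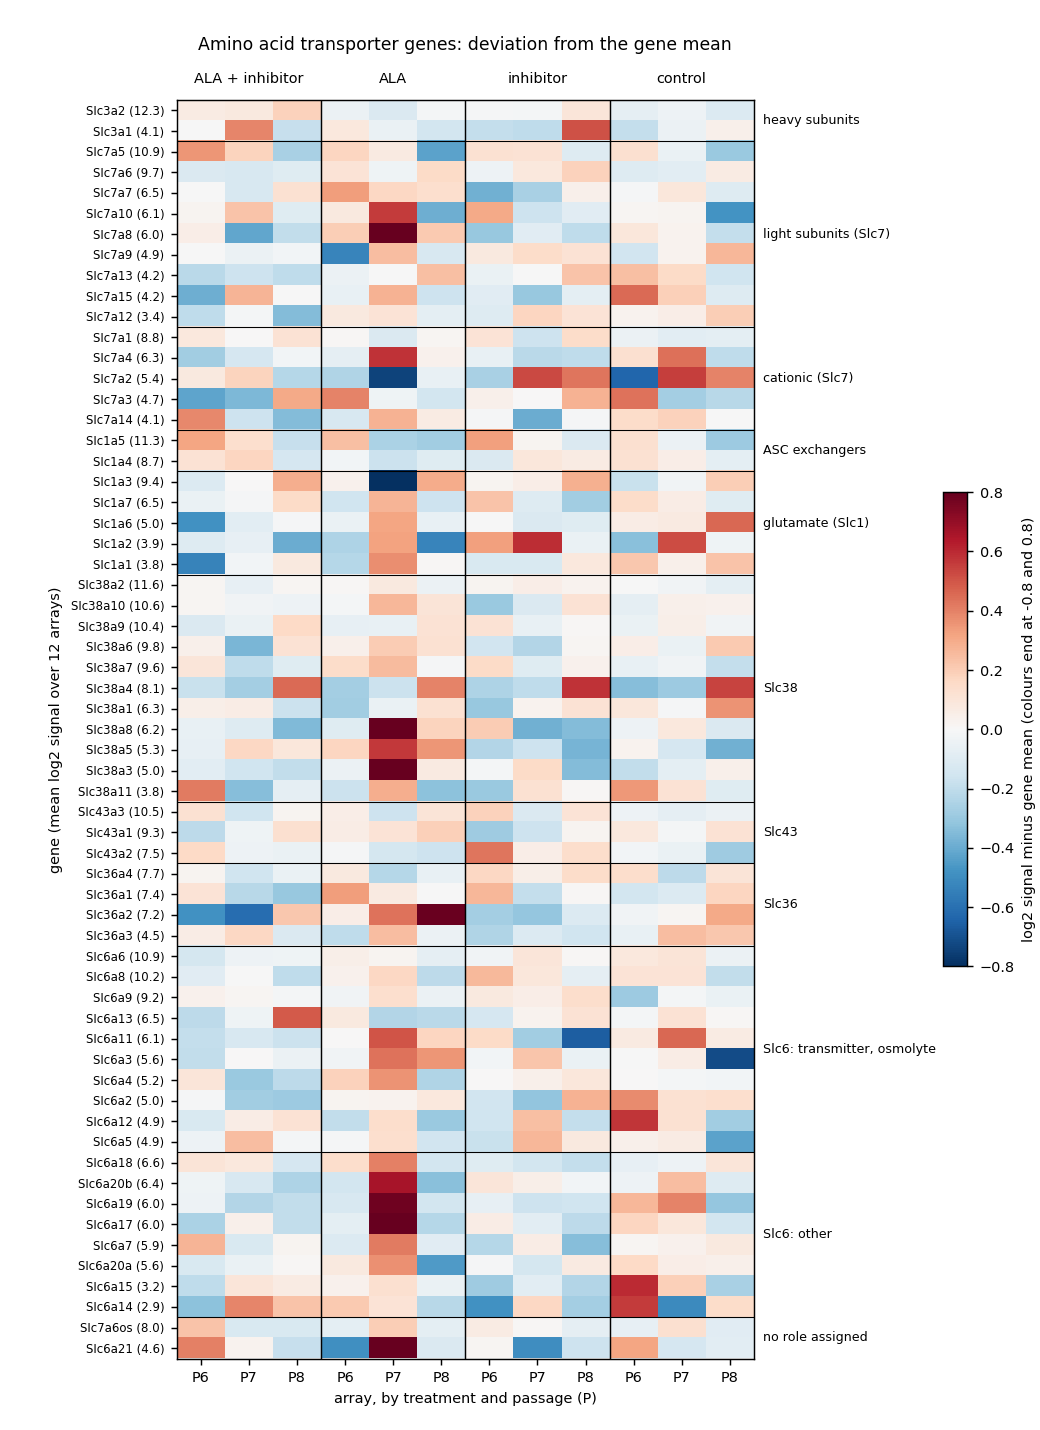
Each row is 1 of the 61 transporter genes and each column 1 of the 12 arrays; colour is the log2 signal minus the gene's mean over the 12 arrays. Slc38a4 separates passage 8 from passages 6 and 7, and the ALA array of passage 7 is high in many dim members.

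The members differed in how their signal varied over the arrays. For each gene, the variance over the 12 arrays was divided into the part between treatments, the part between passages and the rest. The median shares of the members were 26.5% for treatment, 21.9% for passage and 42% for the rest, close to 25.3%, 23.4% and 43.8% over all clusters. An even split over the degrees of freedom would give 27.3% to treatment and 18.2% to passage. The members named next were picked for their high shares, and the shares were not tested. Slc38a4, an amino acid carrier of system A (SNAT4), had 97.1% between passages and 0.603% between treatments. Passage also held 80.5% for Slc7a5, 78.3% for Slc1a5, 66.2% for Slc43a3 and 65% for Slc6a8. Treatment held most of the variance of the glutamine carrier Slc38a5 (76.2%), of Slc3a2 (72.5%), of the light chains Slc7a8 (LAT2, 62.5%) and Slc7a7 (y+LAT1, 60.3%), of the proline and glycine carrier Slc36a2 (PAT2, 56.9%) and of Slc43a2 (LAT4, 56.3%). Without the ALA array of passage 7 these shares were 72.4% for Slc38a5, 73.6% for Slc3a2, 58.2% for Slc7a8, 58.1% for Slc7a7, 51.1% for Slc36a2 and 54% for Slc43a2. Treatment also held 55.7% for Slc7a6, 52.7% for Slc7a12 and 50.2% for Slc6a9, and 68.3%, 53.4% and 58.2% without that array. Dim members reached like shares without it, with 59.6% for Slc7a9, 59.3% for Slc36a3 and 54.1% for Slc6a20b. No member was called in any treatment comparison below. Among the bright members the steadiest was Slc38a2, whose 12 arrays spanned 0.15, from 11.49 to 11.65.

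The first comparison set ALA plus inhibitor against ALA alone, 3 arrays each, and asked what blocking the desaturase did to cells given ALA. The proline and glycine carrier Slc36a2 and the light chain Slc7a8 had lower signals with the inhibitor, and the heavy chain Slc3a2 had a slightly higher one, but no member passed the test over all clusters. A member was called at a limma p under 0.05 after Benjamini-Hochberg adjustment over the 22104 clusters. Members called were 0 of 61 (smallest adjusted p = 0.65), as in all clusters (0%). At the unadjusted p under 0.01 named in the series design, 2 members were lower and none higher, where 1.47% of all clusters passed, and at an unadjusted p under 0.05 it was 3 members, or 4.92%, below the 7.27% of all clusters. In all, 21 members were higher and 40 lower, with a median log2 difference of -0.05 against -0.02 over all clusters. Without the ALA array of passage 7 it was 29 higher and 32 lower, and with arrays centred on their medians 28 higher, so no direction is drawn for the families as a whole.

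Slc36a2, in mice a surface marker of brown adipocytes, measured 6.67, 6.54 and 7.37 with both agents in passages 6, 7 and 8, against 7.21, 7.58 and 7.94 with ALA alone. It was lower in 3 of 3 passages, although the groups overlapped, since its highest value with both agents passed the lowest with ALA. The log2 difference was -0.72 (SE 0.22; limma, adjusted p = 0.65). Passage numbers pair the arrays in every treatment comparison, and with passage as a block limma's adjusted p was 0.31 here, still not a call. Without the ALA array of passage 7 the difference was again -0.72.

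Slc7a8, the light chain that carries large and small neutral amino acids, measured 6.01, 5.55 and 5.77 with both agents, against 6.16, 6.79 and 6.17 with ALA. The groups did not overlap, and the highest value was that of the ALA array that stood apart. The log2 difference was -0.60 (SE 0.18; limma, adjusted p = 0.65), and -0.39 without that array. These were the members under an unadjusted p of 0.01. Slc38a8, the third under 0.05, differed by -0.55 (limma adjusted p = 0.68), but by -0.21 without it. The system N glutamine carriers Slc38a3 and Slc38a5 had lower signals without overlap, with log2 differences of -0.44 and -0.30 (limma adjusted p = 0.68 and 0.69). Without the ALA array that stood apart these were -0.16 and -0.20. For Slc38a5 the nearest values were 5.496 with both agents and 5.502 with ALA. Groups also did not overlap for Slc7a6, Slc7a7, Slc6a2, Slc6a11 and Slc7a13, all lower with both agents. Here and below, the share of all clusters without overlap was not counted, so a lack of overlap is a description and not a test.

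Slc3a2 measured 12.34, 12.36 and 12.46 with both agents, against 12.23, 12.16 and 12.26 with ALA, and the groups did not overlap. Its log2 difference was small, 0.17 (SE 0.10, 95% interval -0.05 to 0.38; limma, adjusted p = 0.71). Other bright members gave 0.18 for Slc1a5 (0.11 without the ALA array of passage 7) and 0.15 for Slc7a5, each higher in 3 of 3 passages with overlapping groups, 0.10 for Slc7a1, -0.02 for Slc38a2 (0.01 without that array) and -0.07 for Slc6a6. The lysosomal carrier Slc36a1 (PAT1) differed by -0.27. The adipocyte surface marker Slc7a10 (Asc-1) differed by -0.03, and by 0.21 without that array.

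**Figure D2:**
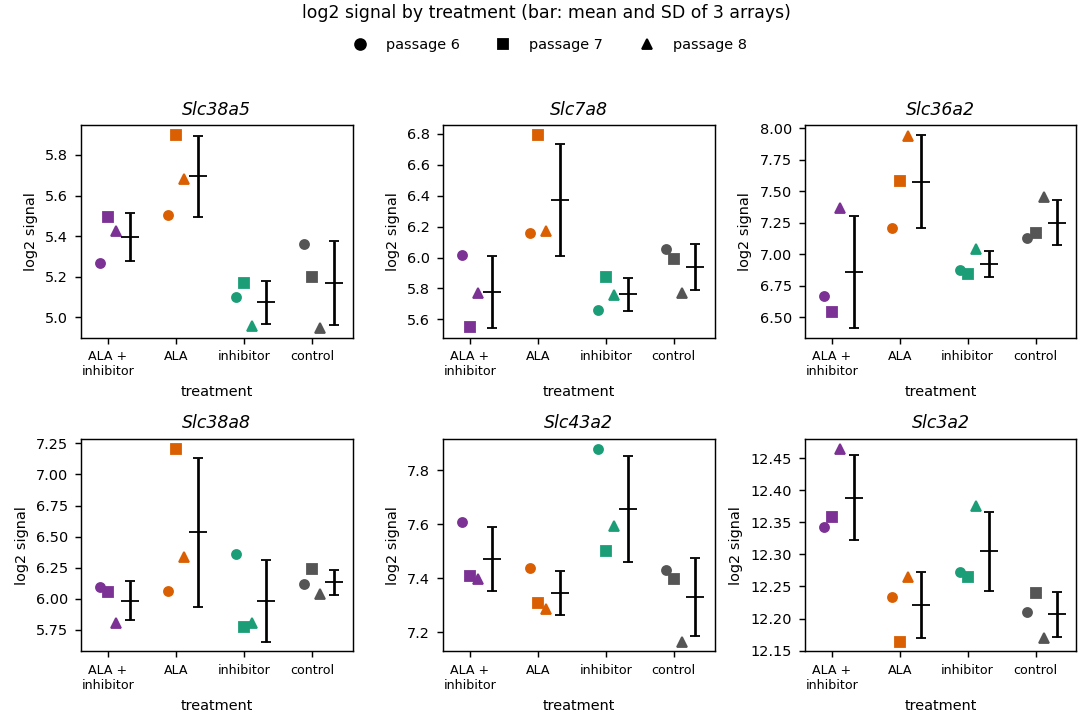
Log2 signals of members named in the treatment comparisons, 1 point per array, with ALA plus inhibitor, ALA, inhibitor and control from left to right, a point shape per passage, and a bar for the mean and SD of 3 arrays. Slc36a2 averages 6.86 with both agents and 7.58 with ALA, Slc7a8 averages 5.78 with both agents and 6.37 with ALA, and Slc3a2 averages 12.39 with both agents and 12.22 with ALA.

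Markers of several cell types were not level between these arms. The mean of the 10 adipocyte markers lay at 10.81 to 11.08 on the arrays with both agents and at 11.07 to 11.25 with ALA. That of the 5 preadipocyte markers lay at 8.74 to 9.02 with both agents and at 8.94 to 9.23 with ALA. Of the adipocyte markers 4 were higher and 6 lower, led by Car3 (carbonic anhydrase 3) at -1.44, and all 5 preadipocyte markers were lower. The mean of 7 neuron markers lay at 5.27 to 5.39 with both agents and at 5.43 to 5.87 with ALA (7 of 7 lower, median -0.24), and that of 6 muscle markers at 5.69 to 5.86 with both agents and at 5.96 to 5.98 with ALA (5 of 6 lower, median -0.05), and neither overlapped. The mean of 7 epithelial markers lay at 5.17 to 5.36 with both agents and at 5.29 to 5.55 with ALA, with 6 of 7 lower. The neuron mean of 5.87 and the epithelial mean of 5.55 were those of the ALA array of passage 7, which stood apart. The medians of these lists without that array were not computed. Only 1 of 7 neuron, 1 of 6 muscle and 1 of 7 epithelial markers lay above the array median on all arrays. Such dim lists, in cells of 1 line, are not read as cells of those types. In bulk RNA, fewer cells that express a marker and less of its RNA per cell cannot be told apart. The part of all these markers in the transporter differences was not tested.

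The inhibitor alone was set against control to ask what the compound did without added ALA. Slc43a2, a carrier of leucine and other large neutral amino acids, had a higher signal in each inhibitor array than in each control array, and Slc36a2 a lower one, but 0 of 61 members were called, as in all clusters (0%). At an unadjusted limma p under 0.01 it was 0 members, where 0.855% of clusters passed, and at p under 0.05 it was 3, or 4.92%, near the 4.32% of all clusters. In all, 28 members were higher and 33 lower, with a median log2 difference of -0.02. With each array centred on its median it was 33 higher, so here too no direction is drawn for the families.

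Slc43a2 measured 7.88, 7.50 and 7.59 with the inhibitor in passages 6, 7 and 8, against 7.43, 7.40 and 7.16 in control. The log2 difference was 0.33 (SE 0.13; limma, adjusted p = 1). Slc36a2 measured 6.88, 6.85 and 7.04 with the inhibitor, against 7.13, 7.17 and 7.45 in control, a difference of -0.33 (SE 0.22; limma, adjusted p = 1) with no overlap. Besides Slc43a2, the members under an unadjusted p of 0.05 were the dim GABA carrier Slc6a11 at -0.46 and Slc36a3 at -0.30. Slc3a2 measured 12.27, 12.27 and 12.38 with the inhibitor, against 12.21, 12.24 and 12.17 in control, a difference of 0.10 (95% interval -0.12 to 0.31) without overlap. Differences were 0.15 for Slc1a5, 0.12 for Slc7a5, 0.10 for Slc7a1, 0.07 for Slc38a2, 0.16 for Slc7a10, 0.06 for Slc36a1 and -0.02 for Slc6a6. Adipocyte marker means were 10.73 to 11.06 with the inhibitor and 10.97 to 11.20 in control, and preadipocyte marker means were 8.68 to 8.99 with the inhibitor and 8.97 to 9.12 in control, with all 5 lower. Their part in these differences was not tested.

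Around the transporters, genes of the amino acid response and the enzymes that load amino acids onto transfer RNA mostly had higher signals with the inhibitor, without any call. Of the 26 measured genes of the response, 22 had a higher signal with the inhibitor than in control (median log2 difference 0.15), and 20 had a higher one with both agents than with ALA (median 0.09). Of 18 synthetases 17 were higher in each comparison (medians 0.12 and 0.10). Over all clusters, dim ones included, the share with a higher signal was 49.2% with the inhibitor and 46.6% with both agents. The share among clusters as bright as these genes was not counted, so a lean of bright clusters in general was not tested. The counts of these lists without the ALA array of passage 7 were not computed. These lists kept at least 20 and 16 higher genes when the arrays were quantile normalized or centred. No gene of either list was called or passed an unadjusted limma p under 0.01 in either comparison. The lean was not particular to them. With the inhibitor, 24 of 34 genes of lysosomal amino acid sensing were higher (median 0.10), 8 of 11 of glutamine and glutamate metabolism and 14 of 23 of branched-chain breakdown. With both agents against ALA these were 16, 6 and 14. Among the response genes and synthetases, single genes were as follows. The nearest with the inhibitor were Phgdh, the first enzyme of serine synthesis, at 0.36, Eif2ak4 at 0.29 and the valine synthetase Vars at 0.33 (limma adjusted p = 1 for each). With both agents they were Slc7a11 at 0.35, Atf3 at 0.34 and the mitochondrial folate enzyme Aldh1l2 at 0.42, each with a limma adjusted p of 0.68. Of the members with the response element core shown above, the neutral amino acid exchanger Slc1a4 averaged 8.72 ± 0.11 with the inhibitor and 8.74 ± 0.10 in control, and 8.76 ± 0.16 with both agents and 8.61 ± 0.08 with ALA (SD, n = 3 each). Slc7a7 averaged 6.29 ± 0.22 with the inhibitor and 6.48 ± 0.10 in control, and 6.49 ± 0.13 with both agents and 6.70 ± 0.11 with ALA. The dim Slc6a21 averaged 4.38 ± 0.26 with the inhibitor and 4.63 ± 0.25 in control, and 4.68 ± 0.30 with both agents and 4.70 ± 0.72 with ALA, where its difference was 0.38 without the ALA array of passage 7.

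ALA alone was set against control to ask what the fatty acid did. The dim glutamine carrier Slc38a5 had a higher signal with ALA, and Slc3a2, Slc38a2, Slc1a5 and Slc7a5 differed from control by 0.05 or less on the log2 scale, but 0 of 61 members were called, as in all clusters (0%). At an unadjusted limma p under 0.01 it was 1 member, where 0.525% of clusters passed, and at p under 0.05 it was 3, or 4.92%, all higher, against 3.41% of all clusters. In all, 36 members were higher and 25 lower, with a median log2 difference of 0.02 against 0.01 over all clusters. Without the ALA array of passage 7 it was 27 higher and 34 lower, so the majority turned with 1 culture.

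Slc38a5 measured 5.50, 5.90 and 5.68 with ALA, against 5.36, 5.20 and 4.95 in control, below the array median on all arrays. The groups did not overlap, and the log2 difference was 0.53 (SE 0.14; limma, adjusted p = 1), or 0.43 without the ALA array of passage 7. Slc7a8 measured 6.16, 6.79 and 6.17 with ALA, against 6.05, 5.99 and 5.77 in control, a difference of 0.43 (SE 0.18; limma, adjusted p = 1) and of 0.22 without that array. The dopamine carrier Slc6a3 differed by 0.47 (limma adjusted p = 1), with overlapping groups, and by 0.38 without that array. Its control arrays measured 5.62, 5.67 and 4.90, and leaving out single arrays gave differences of 0.23 to 0.61. Slc7a10 differed by 0.23, and by -0.01 without that array, so its direction rested on 1 culture. The bright members gave 0.01 for Slc3a2 (95% interval -0.20 to 0.23) and for Slc7a5 (-0.40 to 0.43), -0.03 for Slc1a5, 0.05 for Slc38a2, 0.04 for Slc7a1, -0.05 for Slc6a6 and 0.16 for the dimmer Slc36a1. Without that array Slc7a5 gave -0.05 and Slc1a5 0.05, so no direction is drawn for either. This comparison shares its control arrays with the one of the inhibitor, and its ALA arrays with the first.

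With the inhibitor present, ALA plus inhibitor was set against the inhibitor alone. Slc38a5 again had the higher signal with ALA, at 5.27, 5.50 and 5.42 with both agents, against 5.10, 5.17 and 4.96 with the inhibitor. The groups did not overlap, and the log2 difference was 0.32 (SE 0.14; limma, adjusted p = 1). Members called were 0 of 61, as in all clusters (0%), and 0 passed an unadjusted p under 0.01, where 0.728% of clusters did, with Slc38a5 the 1 member under 0.05 (1.64%, against 3.56% of clusters). The difference between the inhibitor's effect with ALA and without it was tested as an interaction. It called 0 members, as in all clusters (0%), and gave 0 at an unadjusted p under 0.01, where 0.638% of clusters passed. Slc6a3 was the 1 member under 0.05, where 3.42% of clusters passed (-0.60, limma adjusted p = 1, and -0.51 without the ALA array of passage 7). Leaving out single arrays gave -0.74 to -0.35 for Slc6a3. The interaction of Slc36a2 was -0.39 (95% interval -1.06 to 0.28).

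Between passages, named transporters passed the threshold. Passage 8 was set against passage 6 over 4 arrays each, with treatment in the model. The labels give each passage once per treatment, so passage number and anything else the 4 cultures of a passage share, such as a day of work, cannot be told apart. They show no repeat of a passage beyond these 4 cultures, which differ in treatment. The SDs and p-values by passage therefore speak to the spread between cultures and not between repeats of a passage. Slc38a4, a carrier of small neutral amino acids that is imprinted in mice, rose, while the glutamine exchanger Slc1a5 and the leucine carrier Slc7a5 fell. These 3 of 61 members (4.92%) were called, 1 higher and 2 lower, where 1.91% of all clusters were called, 1.31% higher and 0.602% lower. At an unadjusted p under 0.01 it was 4 members (6.56%), against 5.95% of clusters, so by that count the families were near the background. In all, 22 members were higher and 39 lower, with a median log2 difference of -0.05 against -0.01 over all clusters.

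Slc38a4 measured 7.94, 7.85 and 8.57 in passages 6, 7 and 8 with both agents, 7.84, 7.95 and 8.51 with ALA, 7.87, 7.92 and 8.70 with the inhibitor, and 7.78, 7.83 and 8.66 in control. Passage 8 stood above the other passages in every treatment, and passage 7 lay with passage 6. The mean was 8.61 ± 0.08 in passage 8 and 7.86 ± 0.07 in passage 6 (SD, n = 4 each), a log2 difference of 0.75 (SE 0.08) or 1.68-fold (limma adjusted p = 0.0044). It was called under all 20 alternatives, with adjusted p from 4.2e-05 to 0.029.

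Slc1a5 measured 11.61, 11.43 and 11.11 in passages 6, 7 and 8 with both agents, 11.54, 11.04 and 11.02 with ALA, 11.62, 11.32 and 11.18 with the inhibitor, and 11.43, 11.25 and 11.01 in control. The order 6, 7, 8 ran downward in all 4 treatments. The mean was 11.08 ± 0.08 in passage 8 and 11.55 ± 0.09 in passage 6 (SD, n = 4 each), a difference of -0.47 (SE 0.08; limma, adjusted p = 0.025).

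Slc7a5 measured 11.29, 11.12 and 10.68 in passages 6, 7 and 8 with both agents, 11.11, 11.01 and 10.52 with ALA, 11.06, 11.05 and 10.84 with the inhibitor, and 11.07, 10.89 and 10.64 in control. It too was lowest in passage 8 in all 4 treatments, with differences from passage 6 between -0.61 and -0.23. The mean was 10.67 ± 0.13 in passage 8 and 11.14 ± 0.11 in passage 6 (SD, n = 4 each), a difference of -0.47 (SE 0.09; limma, adjusted p = 0.032). The calls of Slc1a5 and Slc7a5 ended without any 1 of the 8 arrays of passages 6 and 8, while their differences stayed between -0.53 and -0.42. The adjusted p then reached 0.096 for Slc1a5 and 0.12 for Slc7a5.

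**Figure D3:**
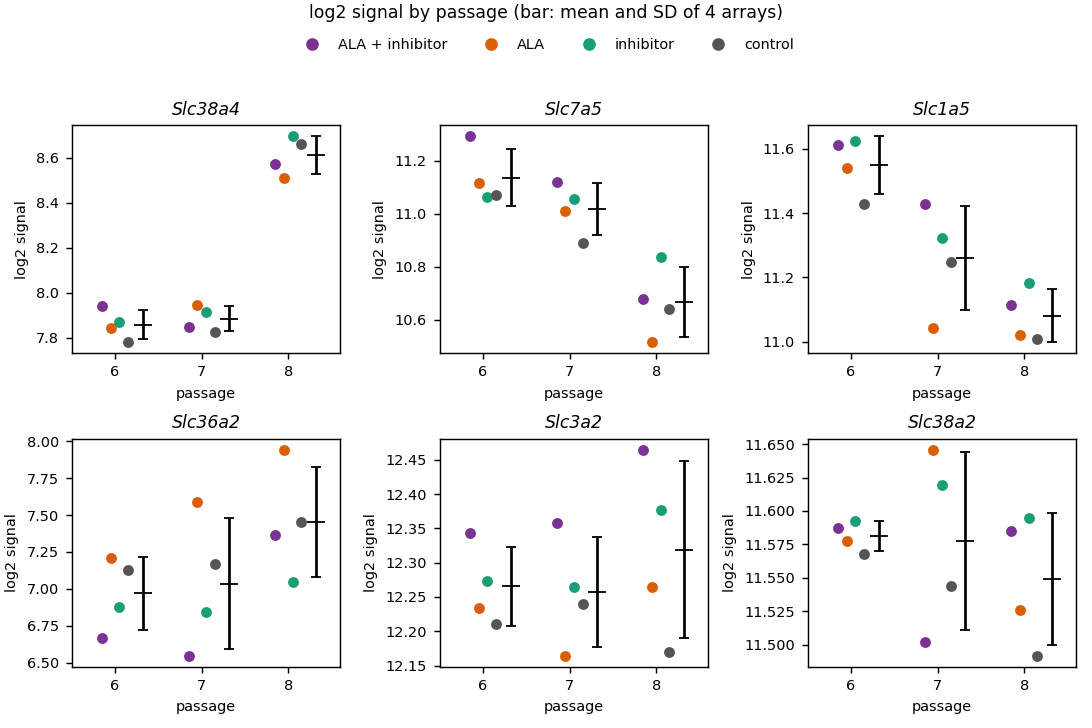
Log2 signals by passage, 1 point per array and 4 arrays per passage, coloured by treatment, with a bar for the mean and SD of the 4 arrays. Slc38a4 averages 8.61 in passage 8 and 7.86 in passage 6, Slc1a5 averages 11.08 in passage 8 and 11.55 in passage 6, and Slc7a5 averages 10.67 in passage 8 and 11.14 in passage 6.

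The heavy chain Slc3a2, which carries Slc7a5 to the membrane, averaged 12.32 ± 0.13 in passage 8 and 12.27 ± 0.06 in passage 6, a difference of 0.05 (SE 0.08, 95% interval -0.12 to 0.22, limma adjusted p = 0.80). The 95% interval of Slc7a5 was -0.67 to -0.27, and the difference between the 2 chains was not tested.

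Other members leaned with passage without a call. Slc36a2 averaged 7.45 ± 0.37 in passage 8 and 6.97 ± 0.25 in passage 6, higher in 4 of 4 treatments with overlapping passages (0.48, limma adjusted p = 0.093). Slc6a8 differed by -0.25 (adjusted p = 0.2), Slc43a2 by -0.23 (0.24) and Slc43a1, the related carrier LAT3, by 0.20 (0.3). Slc7a10 averaged 5.79 ± 0.20 in passage 8 and 6.16 ± 0.13 in passage 6 with no overlap (-0.37, adjusted p = 0.3). Differences were -0.03 for Slc38a2 and Slc6a6, 0.01 for Slc7a1 and -0.17 for Slc36a1. The 8 Slc6a amino acid carriers, most of them dim, were lower in 8 of 8 (median -0.13), with none under an unadjusted p of 0.05. Over all clusters 47.1% were higher.

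**Figure D4:**
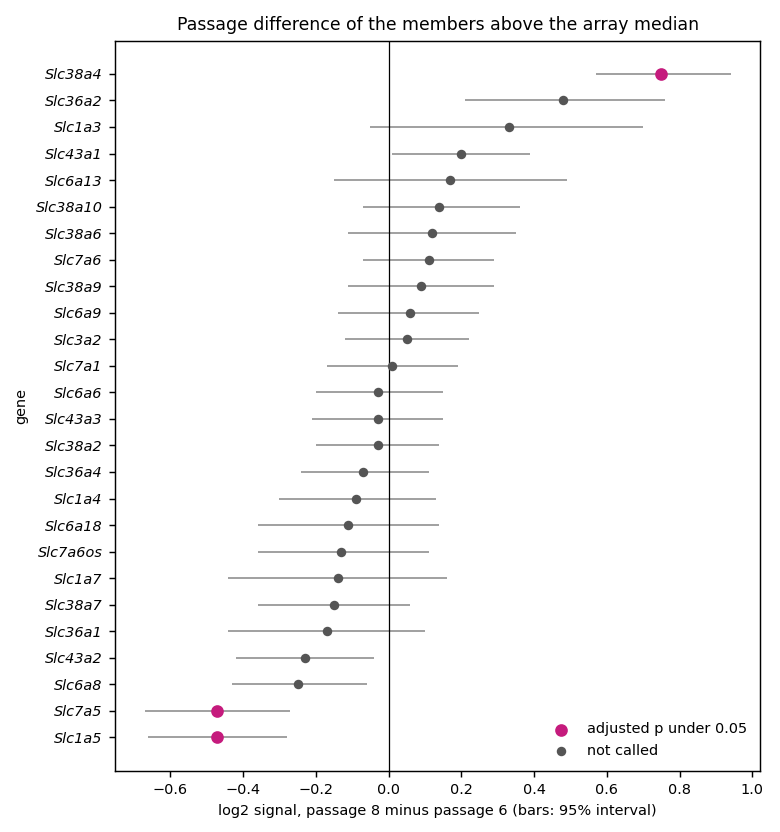
Log2 difference of passage 8 minus passage 6 for the 26 members above the array median on all arrays, with its 95% interval from limma and called members in colour. Slc38a4 at 0.75 lies to the right of 0, Slc1a5 and Slc7a5 at -0.47 to the left, and the interval of Slc3a2 spans 0.

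Some genes that handle amino acids after uptake also differed by passage. Over all clusters, as given above, 47.1% were higher in passage 8 and 0.602% were called lower. Of 23 genes of branched-chain amino acid breakdown 18 were lower (median -0.09), and 2 were called lower. Bcat2, the mitochondrial branched-chain aminotransferase, averaged 10.28 ± 0.07 in passage 8 and 10.69 ± 0.12 in passage 6 (-0.40, limma adjusted p = 0.026), and Dbt, a subunit of the branched-chain ketoacid dehydrogenase, differed by -0.38 (adjusted p = 0.046). Of 26 genes of the amino acid response 17 were lower, and Ddit3 (CHOP) fell by 0.50 on the log2 scale (adjusted p = 0.029). Of 11 genes of glutamine and glutamate metabolism 9 were lower, none of them called, and Ggt5, a gamma-glutamyltransferase, rose by 0.52 (adjusted p = 0.029), where 1.31% of all clusters were called higher. Leaving out any 1 array of passages 6 and 8 ended the calls of Bcat2, Dbt and Ggt5, and 7 of those 8 arrays ended that of Ddit3, with all directions kept. Of 18 synthetases, 34 genes of lysosomal amino acid sensing and 25 other amino acid carriers, limma called 0 and gave 0 at an unadjusted p under 0.01.

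Adipocyte and preadipocyte markers were mostly higher in passage 8 beside these genes. Of 10 adipocyte markers, 9 were higher in passage 8 and 2 were called, Car3 at 0.90 (limma adjusted p = 0.017) and leptin (Lep) at 0.62 (adjusted p = 0.038), while the insulin-responsive glucose carrier Slc2a4 differed by -0.34 (adjusted p = 0.22). The mean of the 10 lay at 11.06 to 11.25 on the arrays of passage 8 and at 10.73 to 11.12 in passage 6. All 5 preadipocyte markers were higher in passage 8 as well, with 1 called (Pdgfrb at 0.44, adjusted p = 0.041), and their mean lay at 8.99 to 9.21 in passage 8 and at 8.68 to 8.97 in passage 6. Of the other marker lists, 2 genes were called, from lists that were split in direction. Muscle markers were 2 higher and 4 lower (median -0.16). Bone and cartilage markers were 3 higher and 3 lower (median 0.02). Desmin (Des, a muscle marker) averaged 7.51 ± 0.09 in passage 8 and 8.19 ± 0.11 in passage 6 (-0.68, limma adjusted p = 0.01), and Sox9 (a cartilage marker) 10.51 ± 0.12 in passage 8 and 9.96 ± 0.33 in passage 6 (0.55, adjusted p = 0.038). Leaving out any 1 of the 8 arrays of passages 6 and 8 kept the call of Des and ended those of Lep and Pdgfrb, 6 of the 8 ended that of Car3 and 7 that of Sox9. The part of these markers in the transporter differences was not tested.

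The genes whose pattern was most like 3 key members were taken by the highest Pearson correlation over the 12 arrays among the 19479 other named genes. For Slc7a5 these were Prkcd (0.967), Hsd3b7 (0.946), Hpca (0.944), Alad (0.943) and Grsf1 (0.935). For Slc3a2 they were Cylc1 (0.849), Scai (0.838), Adm2 (0.834), Rimbp2 (0.834) and Slc4a5 (0.817). For Slc38a2, whose range was 0.15, they were Olfr889 (0.888), Slc39a14 (0.844), A930009A15Rik (0.839), Olfr522 (0.835) and Sil1 (0.831). All points share the same 12 arrays, with 4 treatments and 3 passages among them, and the values are descriptions of these arrays.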

How the data were processed

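Transcript levels were measured in 12 3T3-L1 cultures on whole-transcript arrays, grouped by the treatment in their labels. The authors deposited log2 signals, and the submitters' processing notes name RMA as their source. The sources used here give neither its version nor a genome build. RMA draws dim clusters toward a common floor, so low signals differ by less than their RNA may. Arrays give no read depth, and their number limits the precision: the median SE of a member was 0.16 between treatments and 0.12 between passages.

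All 22104 clusters entered the tests with no filter or further scaling. Gene symbols came from the array annotation held by GEO, and all 61 member IDs were found in the RefSeq gene table with the same symbol. The 12 arrays entered 1 linear model of treatment in limma 3.58.1 (statmod 1.5.0, R 4.3.3) and moderated with eBayes. Residual degrees of freedom were 8 and prior ones 4.66, and in the model with treatment and passage 6 and 3.96. A call is a Benjamini-Hochberg adjusted p under 0.05 over all clusters, two-sided. The limma step was tested on simulated data.

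Members, gene lists and tests were chosen with earlier results of these data known. Named genes were the 15 members of highest mean signal, in each comparison the 4 members of smallest p in each direction among those under 0.05, 8 members always given, and up to 3 genes per list. A few others, such as Slc38a3, Slc38a5 in further comparisons, Slc1a3, Slc1a4, Slc7a7, Slc6a21, Des and Sox9, were named after their values were seen. Alternatives were quantile normalization, centring, array weights, an intensity trend, a filter on the dimmest 30% of clusters, fewer arrays, leaving out each array, averaging clusters and passage as a block.

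Same-numbered passages were checked for pairing by correlating deviations from the group means over all clusters. For ALA plus inhibitor and ALA the correlations were 0.16, 0.16 and 0.24. In the other comparisons at least 1 was under 0.1, although for ALA and control they were 0.01, 0.34 and 0.46. Every treatment was crossed with passage, so all treatment comparisons are paired by layout. The reported treatment fits leave passage in the spread, and passage as a block was run as an alternative.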

Additional observations from a re-analysis of the deposited data

Results flagged for a closer look

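In each of 3 passages, the 4 arrays were checked for a lone outlying value of the 13 members described by passage, 39 groups in all. In 1 group the creatine carrier Slc6a8 measured 10.09 on the inhibitor array of passage 8, against 9.95 to 9.96 on the other arrays of that passage, a gap of 0.901 of the whole range which is above the 95% critical value of Dixon's test. Chance flags about 1 in 20 such groups.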

How the results depend on the processing

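Of 67 differences given for named genes, 53 kept their direction under all alternatives run. Many of these alternatives could not turn a direction, so this count is no measure of robustness. The passage block, intensity trend, dim filter, fewer arrays and averaged clusters leave a difference as it is and change only its test. So does leaving out an array of a group or passage that is not compared. Of the 14 that did not, 13 were smaller than their own SE, and the other was Slc7a10 with ALA against control. Leaving out single arrays gave, with ALA against control, -0.01 to 0.46 for Slc7a10 (0.23 as reported), -0.10 to 0.20 for Slc7a5, -0.20 to 0.07 for Slc1a5 and -0.01 to 0.04 for Slc3a2. With the inhibitor against control it gave -0.07 to 0.01 for Slc6a6, -0.07 to 0.04 for Slc1a4, -0.06 to 0.17 for Slc36a1 and -0.00 to 0.25 for Slc7a10. With both agents against ALA it gave -0.26 to 0.21 for Slc7a10, -0.05 to 0.01 for Slc38a2, -0.03 to 0.33 for Slc7a5 and -0.31 to 0.38 for Slc6a21. By passage it gave -0.02 to 0.04 for Slc7a1 and -0.06 to 0.00 for Slc6a6. Array weights turned Slc7a10 (-0.02) and Slc7a5 (-0.09) with ALA, and Slc7a10 (0.18) and Slc6a21 (0.25) with both agents. Centring turned Slc6a6 and Slc1a4 (0.03 each) with the inhibitor, and Slc38a2 (0.01), Slc7a10 (0.00) and Slc6a21 (0.01) with both agents. Quantile normalization turned Slc6a21 (0.06) with both agents and Slc7a1 (-0.00) by passage. For passage 8 against passage 6, 3 members were called as reported, 5 with an intensity trend (adding Slc36a2, adjusted p = 0.028, and Slc6a8, 0.032), 1 with only the arrays of passages 6 and 8 (fewer samples; Slc1a5 0.061, Slc7a5 0.098), and 1 to 4 when single arrays were left out. Slc38a4 was called in all of these. Leaving out the passage 7 array of both agents, of the inhibitor or of control ended the Slc7a5 call (0.055, 0.054 and 0.057). Clusters called were 423 as reported and 140 to 1163 under the alternatives.

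In the treatment comparisons 0 members were called under every alternative. Clusters at an unadjusted p under 0.01 moved more: for ALA against control 116 as reported, 51 without dim clusters and 95 to 281 when single arrays were left out; for the inhibitor against control 189, 438 with array weights and 129 to 293 when single arrays were left out, 37.6% of them higher as reported and 61.6% with arrays centred; for ALA plus inhibitor against ALA 325 and 185 to 624 when single arrays were left out. With single arrays left out, members under 0.01 were 0 to 2, 0 to 1 and 0 to 3 in these comparisons. For ALA plus inhibitor against inhibitor the clusters were 161 as reported and 76 to 370 under the alternatives (370 with array weights), and for the interaction 141 and 57 to 280 (280 with array weights). With passage as a replicate block, these counts were 186, 322 and 561, 0 members were called, and members under 0.01 were 1, 1 and 2, where the reported counts were 1, 0 and 2. The added member was Slc43a2 (limma adjusted p = 0.66). Slc36a3 was left out with the dim clusters. The causes of these shifts were not tested. With 3 arrays a group, small differences in dim members could not be told from the spread.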

Other observations

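The glutamate carrier Slc1a3 (GLAST) measured 8.56 on the ALA array of passage 7, against 9.23 to 9.71 on the other 11 arrays. Among carriers outside the families, the vesicular GABA and glycine carrier Slc32a1 averaged 5.91 ± 0.19 with both agents and 6.45 ± 0.30 with ALA (-0.54, limma adjusted p = 0.65). The aromatic amino acid carrier Slc16a10 averaged 5.76 ± 0.40 with both agents and 6.21 ± 0.18 with ALA (-0.45, limma adjusted p = 0.68).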
